A study of Mus musculus with 14 samples.

Results

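The Reg genes (regenerating islet-derived genes) encode small secreted C-type lectins. Reg1, Reg3b, Reg3g, Reg3a and Reg4 were described here in 14 RNA libraries of mouse intestinal stem cells, as 5 genes chosen by symbol among the 55335 genes of each of 2 count tables. The cells were sorted by the EGFP of an Lgr5CreERT2-IRES-GFP allele, in which the stem cell gene Lgr5 drives both the reporter and a tamoxifen-inducible Cre. In the first experiment every mouse also carried Chrm3flox/flox, the floxed gene of the M3 muscarinic acetylcholine receptor. Mice injected with TAM (tamoxifen) are named KO and those injected with vehicle WT, so genotype and injection changed together, and cells outside the Lgr5 lineage keep the receptor. The injections ran for 3 days ahead of a procedure that the labels abbreviate ES, and its control is abbreviated NT. The groups were KO ES, KO NT, WT ES and WT NT with n = 2 libraries each. The second experiment used mice carrying just the Lgr5 allele, at 18 months (old) or 2 months (young) of age, with n = 3 libraries each. The series title links chronic stress to ageing of these cells. Whether libraries of 1 group were made from separate animals is not in the labels, and all p-values therefore refer to library-to-library spread, which may be technical.

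Reg3g is a bactericidal lectin that binds the peptidoglycan of Gram-positive bacteria, and Reg3b acts mainly on Gram-negative bacteria. Both are made by Paneth cells and enterocytes and are induced by microbial signals through MyD88 and by the cytokine IL-22, whose receptor on epithelial cells signals through STAT3. Reg1 was first described in regenerating pancreatic islets and is also made by pancreatic acinar cells and by the gut epithelium. Reg4 marks secretory cells of the crypt, among them enteroendocrine cells. Reg3a is a close relative of Reg3b and Reg3g.

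On GRCm38, 6 Reg genes lie within 98.2 kb of chromosome 6, in the order Reg3b, Reg3d, Reg3a, Reg2, Reg1 and Reg3g. Reg3b spans chr6:78370657-78373466 and Reg3a chr6:78380709-78383827, both on the plus strand. Reg1 spans chr6:78422711-78428667 on the plus strand and Reg3g chr6:78466269-78468872 on the minus strand. Reg4 lies apart on chromosome 3, at chr3:98222156-98236748 on the plus strand. Reg2 had 0 counts in all 14 libraries and Reg3d had 0 to 10, so neither could be compared. Reg3b and Reg3g shared 75.9% of their aligned coding bases, Reg3b and Reg3a 73.8%, and Reg1 shared 55.1% to 57.8% with the 3 Reg3 genes. No window of 50 bases in the annotated transcripts of Reg3b, Reg3g, Reg3a or Reg4 also occurred in a transcript of another gene, and 3.65% of the windows of Reg1 did, none of them from another Reg gene.

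The 250 bases before the start sites of Reg1, Reg3b and Reg3g are shown because these 3 genes had the largest rises with ES in WT among the 5, and Reg1 went the other way in KO. They come from RefSeq for GRCm38.p6 and are written on each gene's own strand, 5′ to 3′. Capitals mark matches on either strand to TATAAA (the TATA box), TTCNNNGAA (a STAT motif) and TGANTCA (an AP-1 motif), and no match overlapped another. The windows are chr6:78425733-78425982 (plus strand), chr6:78370635-78370884 (plus strand) and chr6:78468875-78469124 (minus strand). For Reg1 and Reg3b the RefSeq start lies inside the gene as GENCODE draws it, whose annotation begins earlier.
Reg1: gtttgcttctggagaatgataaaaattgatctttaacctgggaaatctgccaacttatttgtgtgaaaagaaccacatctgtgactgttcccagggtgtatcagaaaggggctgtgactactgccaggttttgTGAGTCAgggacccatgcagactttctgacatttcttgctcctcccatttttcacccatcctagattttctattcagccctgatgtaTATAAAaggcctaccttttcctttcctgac
Reg3b: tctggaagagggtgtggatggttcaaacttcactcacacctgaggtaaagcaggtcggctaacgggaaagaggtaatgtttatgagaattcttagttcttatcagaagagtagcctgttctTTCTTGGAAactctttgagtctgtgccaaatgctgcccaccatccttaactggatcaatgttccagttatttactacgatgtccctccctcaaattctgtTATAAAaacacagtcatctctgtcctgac
Reg3g: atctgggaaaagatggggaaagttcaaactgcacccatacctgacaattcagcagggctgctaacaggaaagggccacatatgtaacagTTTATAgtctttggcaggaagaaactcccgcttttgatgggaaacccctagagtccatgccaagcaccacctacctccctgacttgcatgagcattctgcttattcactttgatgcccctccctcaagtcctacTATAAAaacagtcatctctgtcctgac
All 3 windows hold a TATA box whose first base lies 27 to 30 bases before the start. Of the 32851 RefSeq windows of that length, 12.4% hold a match anywhere in the 250 bases, on either strand. The share with one at that position was not counted, and the other shares given here are likewise for matches at any position. Reg3g has a second match, on the opposite strand, 161 bases before the start. The STAT match lies 129 bases before the start of Reg3b (7.02% of all windows hold one), and the AP-1 match 117 bases before the start of Reg1 (6.75%). The windows of Reg3a and Reg4 held no match to these motifs, and no window of the 5 genes held the E box CAGCTG (13.0%). With 50 bases after the start included, the windows of Reg3b and Reg3g were 68.1% identical, against 43.6% to 52.4% for every other pair of the 5. Their longest shared run, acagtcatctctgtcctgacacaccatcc, has 29 bases and begins 20 bases before both starts. Each match describes the letters of the window and shows no binding.

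Total counts ranged from 26683563 to 36882310 per library. All 19 stem cell markers were expressed highly enough to be tested in both tables, and Lgr5 itself had 80.3 to 133 CPM, the usual count scaled to library size. Chrm3 had 6.04 to 9.24 CPM in the KO libraries and 10.9 to 13.0 CPM in the WT libraries, with no overlap, and passed as lower in KO under ES (-0.68 ± 0.17, adjusted p = 0.0363) but not under NT (-0.50 ± 0.16, adjusted p = 0.119). Which exons were deleted is not stated in the labels, so the whole-gene count is a weak check of the KO label. KO NT replicate 2 stood apart, with 8.74% of its counts on mitochondrial genes against 6.12% to 7.53% in the other libraries, and the counts of the KO NT pair differed most among the same-group pairs of its experiment (chi-square over degrees of freedom 23.3 against 3.47 to 13.7). Calls of Reg genes that rest on it are given without it as well. For other genes and for the marker lists no values without it are given. In these bulk samples, fewer cells of a type and less RNA per cell cannot be told apart.

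Levels are given as CPM after scaling by trimmed mean of M-values, and the ± given with a level is the SD over the libraries of a group. To set genes side by side, CPM were divided by the length in kilobases of the longest coding transcript. On that scale Reg3b and Reg3g led in both ES groups. In KO ES, Reg3g had 291 ± 61.4, Reg3b 265 ± 64.3, Reg4 74.4 ± 0.691, Reg1 27.6 ± 3.27 and Reg3a 4.14 ± 0.842 CPM per kb (n = 2). In WT ES, Reg3b had 556 ± 80.7, Reg3g 452 ± 22.7, Reg1 123 ± 2.27, Reg4 68.9 ± 7.12 and Reg3a 13.2 ± 2.83 CPM per kb (n = 2). In NT the order was Reg3g (117 ± 44.9), Reg3b (116 ± 70.3), Reg4 (60.1 ± 11.6), Reg1 (56.0 ± 16.1) and Reg3a (5.01 ± 0.153 CPM per kb) in KO, where neither the first pair nor Reg4 and Reg1 differed beyond their spread. In WT NT it was Reg3b (175 ± 0.785), Reg3g (153 ± 2.31), Reg4 (56.5 ± 5.66), Reg1 (36.4 ± 0.125) and Reg3a (6.61 ± 0.772 CPM per kb). Reg1 thus stood above Reg4 in WT ES and below it in KO ES, while Reg3b and Reg3g were within their spread of each other in KO ES. In old, Reg3g (159 ± 9.52 CPM per kb) and Reg3b (155 ± 18.3) were within their spread and stood above Reg4 (87.0 ± 8.70), whereas in young Reg4 came first with 157 ± 15.8, ahead of Reg3g with 130 ± 23.2 and Reg3b with 85.9 ± 28.8 CPM per kb (n = 3 each). Reg4 and Reg3g of young overlapped, since Reg3g had 155 and Reg4 141 CPM per kb in young replicate 1. Reg3a was the lowest of the 5 in every group.

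**Figure D1:**
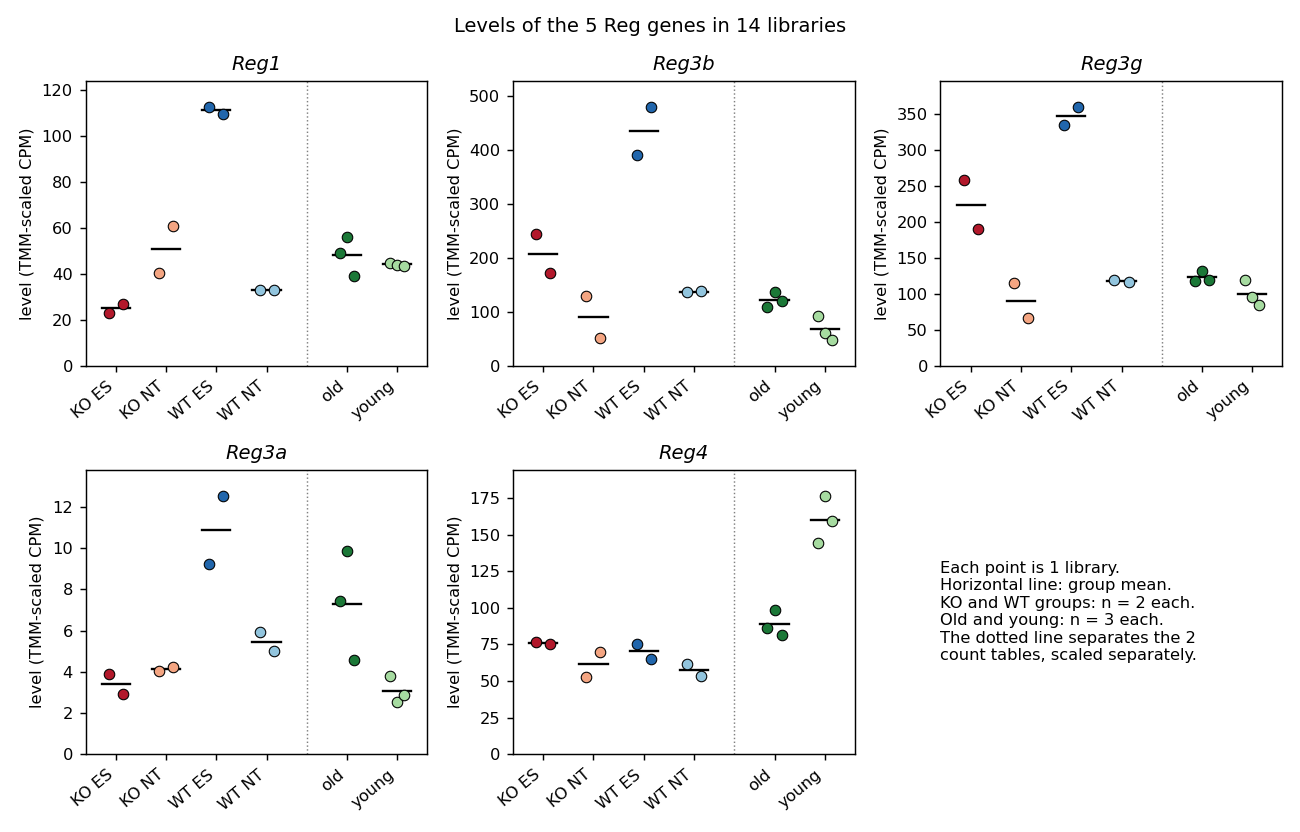
Level of each Reg gene (vertical axis, TMM-scaled CPM) in every library of the 6 groups (horizontal axis), with 1 point per library and a line at the group mean. The group means of Reg1, Reg3b, Reg3g and Reg3a are highest in WT ES, where Reg1 has 113 and 110 CPM, and Reg4 is highest in young, with 144 to 177 CPM.

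Of the 5 genes, 4 rose with ES in WT and none fell. The gene with no call was Reg4. All 17364 tested genes gave 2.1% higher and 1.39% lower in that comparison, and the median log2 fold change was 1.56 over the 5 genes and -0.00 over all genes. With ES in KO, Reg3g rose and Reg1 fell, against 0.415% higher and 0.0979% lower among all genes (median 0.31 over the 5 genes). In KO against WT under ES, Reg1 and Reg3a fell and none rose, against 3.09% higher and 4.47% lower among all genes (median -1.07). In KO against WT under NT, edgeR passed 0 of the 5 (unadjusted p was under 0.05 for 1, and DESeq2 passed 1 and limma-voom 0), against 2.36% higher and 2.11% lower (median -0.38). The ES effect in KO minus that in WT passed for Reg1, which was lower, against 0.0115% higher and 0.0979% lower among all genes (median -0.47). In old against young, 2 rose and 1 fell of the 5, against 4.42% higher and 3.42% lower among 16807 tested genes (median 0.30). Without a filter on low counts, 4 of these calls passed, namely Reg1 with ES in WT, Reg1 and Reg3a in KO under ES, and Reg4 in old. All others were lost, including the Reg1 difference of the ES effects (adjusted p = 0.111). Calls also fell among all genes, from 605 to 114 with ES in WT and from 89 to 8 with ES in KO. For the difference of the ES effects they fell from 19 to 0, so these losses were not particular to the Reg genes. With only the 2 groups compared in the fit, both calls with ES in KO were lost (0.111 and 0.113), and Reg3b and Reg3g also passed as lower in KO under ES (0.00103 and 0.00706). Among all genes, calls then went from 89 to 24 with ES in KO and from 1312 to 1448 in KO under ES. The comparisons of the first experiment share libraries, so their values are set side by side with no test between them other than that of the ES effect.

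**Figure D2:**
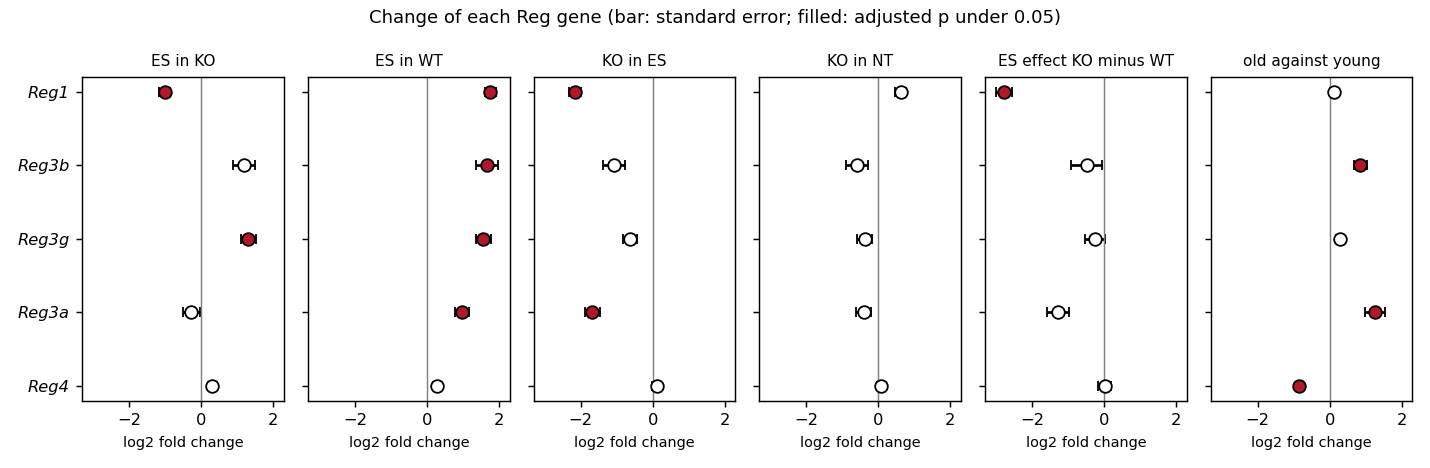
Log2 fold change (horizontal axis) of each Reg gene (rows) in the 6 comparisons, with bars for the standard error and filled points where the adjusted p is under 0.05. Reg1 has filled points on both sides of 0, at 1.76 for ES in WT and -1.01 for ES in KO.

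Reg1 was the 1 member with calls for ES in opposite directions in the 2 genotypes. Reg3a also had values of opposite sign (0.98 in WT and -0.28 in KO), but the KO one did not pass. Reg1 had 22.9 and 27.0 CPM in KO ES and 40.3 and 60.9 CPM in KO NT. It had 113 and 110 CPM in WT ES and 32.8 and 33.0 CPM in WT NT. Both WT ES libraries were above every other library of the experiment, both KO ES libraries were below every other one, and no 2 groups overlapped. With 2 libraries per group this is a weak description. Reg4, which had no call, also showed no overlap with ES in either genotype, and the share of all genes without overlap was not computed. With ES, Reg1 fell in KO (log2 fold change -1.01 ± 0.16, with ± the standard error here and for every fold change, adjusted p = 0.0235 by edgeR's quasi-likelihood test with Benjamini-Hochberg adjustment) and rose 3.38-fold in WT (1.76 ± 0.16, adjusted p = 0.000589). Relative to WT, the KO level was 4.45-fold lower under ES (-2.15 ± 0.16, adjusted p = 2.91e-05). Under NT the value was 0.62 ± 0.16 and did not pass (adjusted p = 0.052).

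The difference of the ES effects in Reg1, KO minus WT, was -2.77 ± 0.22 on the log2 scale (adjusted p = 0.00197), a 6.83-fold lower response in KO, and it had the smallest p of the 17364 genes tested. The difference includes the KO NT level, which was above that of WT NT in both libraries. Without KO NT replicate 2 the difference was -2.47, and without KO NT replicate 1 it was -3.04. Without WT NT replicate 1 the value stayed at -2.77 but the call was lost. Calls among all genes fell in that fit as well, so the loss was not particular to Reg1. The rise in WT and the lower level in KO under ES passed whichever library was left out. Enterocyte markers moved the same way (median -1.44 for the difference of the ES effects over 16 markers), and their part in the Reg1 result was not tested. The fall with ES in KO did not pass without either KO ES library (adjusted p = 0.176 and 0.11) or either WT NT library (0.0722 and 0.0765), and was -0.70 without KO NT replicate 2 and -1.28 without KO NT replicate 1. The NT value was 0.31 (adjusted p = 0.134) without KO NT replicate 2 and 0.89 (adjusted p = 0.000385) without KO NT replicate 1. In the ageing experiment Reg1 had 48.8, 55.9 and 39.2 CPM in old and 44.8, 44.0 and 43.5 CPM in young. The old libraries lay on both sides of the young ones, and the value of 0.12 ± 0.11 did not pass (adjusted p = 0.585).

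Reg3b and Reg3g, the bactericidal pair, rose with ES in WT. Reg3b had 243 and 172 CPM in KO ES and 130 and 51.9 CPM in KO NT. It had 390.4 and 479.8 CPM in WT ES and 137 and 138 CPM in WT NT. The ES libraries were above the NT libraries in both genotypes, and the KO ES libraries were below the WT ES ones. With ES, Reg3b rose 3.17-fold in WT (1.66 ± 0.31, adjusted p = 0.0206), and in KO the value was 1.19 ± 0.31, which did not pass (adjusted p = 0.182). The difference of the ES effects did not pass either (-0.47 ± 0.44, adjusted p = 0.75). In KO against WT the values were -1.07 ± 0.31 under ES (adjusted p = 0.0621) and -0.59 ± 0.31 under NT (adjusted p = 0.367), and neither passed.

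The call in WT was lost without any 1 of the 4 WT libraries, with adjusted p from 0.0748 to 0.23. The KO values depended on which KO NT library was kept. Without KO NT replicate 1, Reg3b rose with ES in KO (2.00, adjusted p = 0.000299) and was lower in KO under NT (-1.40, adjusted p = 0.00113), while the difference of the ES effects turned to 0.34 (adjusted p = 0.552). Without KO NT replicate 2 the same 3 values were 0.67 (adjusted p = 0.138), -0.07 (adjusted p = 0.91) and -1.01 (adjusted p = 0.0852). The lower Reg3b level in KO under ES passed without KO NT replicate 1 (adjusted p = 0.000459) or 2 (0.000408), libraries of neither group compared, and by limma-voom (0.0488).

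Reg3g had 258 and 191 CPM in KO ES and 115 and 65.9 CPM in KO NT. It had 336 and 361 CPM in WT ES and 119 and 117 CPM in WT NT. As for Reg3b, both ES groups were above their NT groups without overlap. With ES, Reg3g rose in KO (1.31 ± 0.21, adjusted p = 0.0235) and in WT (1.56 ± 0.21, adjusted p = 0.0045), 2.48-fold and 2.95-fold. The difference of these effects was -0.25 ± 0.29 (adjusted p = 0.817), and in KO against WT the values of -0.63 ± 0.20 under ES (adjusted p = 0.0848) and -0.38 ± 0.21 under NT (adjusted p = 0.377) did not pass.

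Leaving out 1 library moved the calls of Reg3g as well. The rise in WT was lost without either WT NT library (adjusted p = 0.0855 and 0.108). The rise in KO was lost without either WT NT library (0.0722 and 0.0765) or either KO ES library (0.154 and 0.0589), and was 0.96 (adjusted p = 0.00753) without KO NT replicate 2 and 1.77 (adjusted p = 0.000156) without KO NT replicate 1. Without KO NT replicate 1, Reg3g was also lower in KO under NT (-0.84, adjusted p = 0.00674), and without KO NT replicate 2 that value was -0.02 (adjusted p = 0.969), while the difference of the ES effects was 0.21 (adjusted p = 0.669) without KO NT replicate 1 and -0.62 (adjusted p = 0.187) without replicate 2. Without either of these 2 libraries the lower level in KO under ES passed (adjusted p = 0.00347 and 0.00323).

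With age Reg3b rose and Reg3g had no call. Reg3b had 108, 137 and 119 CPM in old and 92.1, 61.3 and 48.2 CPM in young, and every old library was above every young one. The rise was 0.86 ± 0.18 (adjusted p = 0.0151), and it did not pass without old replicate 2 (adjusted p = 0.0514) or young replicate 2 (0.0775). Reg3g had 118, 131 and 119.7 CPM in old and 119.5, 96.3 and 84.4 CPM in young, so 1 young library overlapped the old ones. Its value of 0.30 ± 0.11 did not pass (adjusted p = 0.124), and passed without that library, young replicate 1 (0.44, adjusted p = 0.0165), and by DESeq2 (0.0457).

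The ratio of the 2 genes within a library stayed between 0.788 and 1.33 in the first experiment. Reg3b counts per Reg3g count were 0.943 and 0.901 in KO ES, 1.13 and 0.788 in KO NT, 1.16 and 1.33 in WT ES, and 1.15 and 1.18 in WT NT. In the second experiment the ratio was 0.919, 1.04 and 0.997 in old and 0.771, 0.637 and 0.572 in young, with no overlap. As a description over libraries that share groups, Pearson's r between their log2 levels was 0.976 over the 8 libraries of the first experiment and 0.976 over the 6 of the second. Reg1 followed neither gene in the first experiment (r of 0.41 with Reg3b and 0.36 with Reg3g). With Reg3a its r was 0.83 there and 0.73 in the second experiment. Reg1 counts per Reg3g count were 0.0886 and 0.142 in KO ES, the lowest of the 14 libraries, and 0.351 and 0.924 in KO NT. In WT they were 0.335 and 0.304 under ES and 0.275 and 0.283 under NT.

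**Figure D3:**
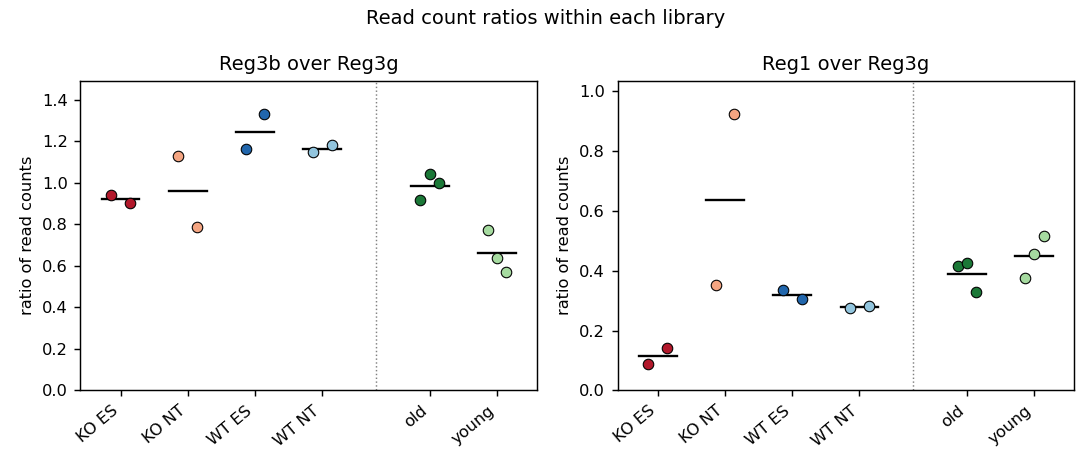
Read counts of Reg3b (left) and of Reg1 (right) divided by those of Reg3g in the same library (vertical axis), by group (horizontal axis), with 1 point per library and a line at the group mean. The Reg1 ratio is lowest in KO ES (0.0886 and 0.142), and the Reg3b ratio is lower in all 3 young libraries than in the 3 old ones.

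Reg3a, the scarcest of the 5, rose with ES in WT and was lower in KO than in WT under ES. It had 3.90 and 2.92 CPM in KO ES and 4.04 and 4.22 CPM in KO NT. It had 9.23 and 12.5 CPM in WT ES and 5.91 and 5.01 CPM in WT NT. These levels rest on few counts, 123 and 103 in KO ES and 284 and 335 in WT ES. The WT ES libraries were above all others, and each KO library was below each WT library. With ES the value was -0.28 ± 0.23 in KO (adjusted p = 0.852) and 0.98 ± 0.19 in WT (adjusted p = 0.0249), of which the WT one passed. Under ES, Reg3a was 3.19-fold lower in KO than in WT (-1.67 ± 0.21, adjusted p = 0.00103), and the value of -0.41 ± 0.22 under NT did not pass (adjusted p = 0.374). The lower level in KO under ES passed whichever library was left out. The rise in WT was lost without WT ES replicate 2 (adjusted p = 0.138), WT NT replicate 1 (0.152) or WT NT replicate 2 (0.246). The difference of the ES effects was -1.27 ± 0.30 and did not pass in edgeR (adjusted p = 0.153), though it did in DESeq2 (0.0317).

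With age Reg3a rose 2.40-fold. It had 7.42, 9.85 and 4.56 CPM in old and 3.78, 2.53 and 2.88 CPM in young, and each old library was above each young one. The rise of 1.27 ± 0.28 (adjusted p = 0.0192) did not pass without old replicate 1 (0.0754), old replicate 2 (0.0658), young replicate 2 (0.0904) or young replicate 3 (0.0581).

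Reg4, the secretory cell gene on chromosome 3, had no call in the first experiment and fell with age. It had 86.3, 98.7 and 81.5 CPM in old and 144, 177 and 159 CPM in young. The highest old library was below the lowest young one, and Reg4 was 1.80-fold lower in old (-0.85 ± 0.09, adjusted p = 0.000218). This call passed whichever library was left out, with values from -0.93 to -0.77. Reg4 had 76.5 and 75.5 CPM in KO ES, 53.0 and 69.7 CPM in KO NT, 75.5 and 65.2 CPM in WT ES, and 61.7 and 53.6 CPM in WT NT. The ES libraries were above the NT ones within each genotype, by 0.31 ± 0.12 in KO (adjusted p = 0.489) and 0.29 ± 0.12 in WT (adjusted p = 0.246), and neither value passed. In KO against WT the values were 0.11 ± 0.12 under ES (adjusted p = 0.649) and 0.09 ± 0.12 under NT (adjusted p = 0.77), and the difference of the ES effects was 0.02 ± 0.17 (adjusted p = 0.984). The last 2 values were near 0 and turned sign when single libraries were left out, with ranges of -0.11 to 0.27 and -0.16 to 0.21.

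The receptor and transcription factor known to act on Reg3b and Reg3g rose with ES in WT, by less than Reg1, Reg3b, Reg3g and Reg3a did. Il22ra1, the subunit of the IL-22 receptor that epithelial cells express, had 20.2 and 20.1 CPM in KO ES and 19.0 and 18.5 CPM in KO NT, and 27.9 and 25.1 CPM in WT ES and 19.1 and 19.1 CPM in WT NT. It rose with ES in WT (0.47 ± 0.09, adjusted p = 0.0219) and was lower in KO than in WT under ES (-0.40 ± 0.09, adjusted p = 0.0231), while its value with ES in KO was 0.10 ± 0.09 (adjusted p = 0.873). It also rose in old, to 27.2 ± 0.815 CPM against 21.6 ± 1.98 CPM in young (n = 3 each, 0.34 ± 0.09, adjusted p = 0.0434). Stat3, the transcription factor downstream of that receptor, rose with ES in WT (0.49 ± 0.10, adjusted p = 0.0291) and was lower in KO under ES (-0.37 ± 0.10, adjusted p = 0.0476). Socs3, a feedback inhibitor induced by STAT3, was higher in KO under NT (0.82 ± 0.13, adjusted p = 0.00552). Under ES its value in KO against WT was 0.07 ± 0.13 (adjusted p = 0.781). With ES it was 0.52 ± 0.13 in WT (adjusted p = 0.0599) and -0.23 ± 0.12 in KO (adjusted p = 0.688), and none of these passed. Extl3, a reported receptor of Reg proteins, had 34.5 to 45.6 CPM in the 14 libraries and passed in no comparison.

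Of the 18 tested genes of IL-22 and IL-6 family receptors and STAT3 signalling, the calls were Il22ra1 and Stat3, higher, with ES in WT, the same 2, lower, in KO under ES, Socs3 in KO under NT and Il22ra1 in old. The list median was 0.12 with ES in WT, -0.01 in KO under ES, 0.04 in KO under NT and 0.02 in old. With ES in KO, edgeR passed 0 of these 18 (unadjusted p was under 0.05 for 2, and DESeq2 passed 1 and limma-voom 0). None of the 18 passed for KO minus WT in the ES effect (unadjusted p was under 0.05 for 2, and DESeq2 and limma-voom passed 0). All-gene medians lay between -0.01 and 0.01 in the 6 comparisons.

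Of the 20 tested genes of microbial sensing and IL-17 and IL-1 receptor signalling, 3 rose and none fell with ES in WT. These were Tlr3, a sensor of double-stranded RNA (0.42 ± 0.08), Nfkbiz, a cofactor of NF-kB (0.26 ± 0.06), and Nfkbia, its inhibitor (0.37 ± 0.09). Set against WT, KO had more Nfkbia both under ES (0.43 ± 0.09) and under NT (0.60 ± 0.09), Nfkbiz was higher under NT (0.31 ± 0.06) and Tlr3 was lower under ES (-0.34 ± 0.08). In old, 4 of the 20 rose and none fell: Tlr1 (0.79 ± 0.13), Tnfaip3, an inhibitor of NF-kB signalling (0.52 ± 0.09), the adaptor Myd88 (0.38 ± 0.08) and Nfkbiz (0.24 ± 0.06). With ES in KO, edgeR passed 0 of the 20 (unadjusted p was under 0.05 for 5, and DESeq2 passed 1 and limma-voom 0), and none passed for KO minus WT in the ES effect either (unadjusted p was under 0.05 for 3, and DESeq2 and limma-voom passed 0).

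Among 21 tested other epithelial genes known to respond to IL-22 or microbes, 6 rose and none fell with ES in WT (median 0.46). Dmbt1, a secreted mucosal scavenger protein, rose by 0.71 ± 0.06, and Retnlb, a bactericidal goblet cell protein, averaged 3.69 CPM in WT ES and 0.322 CPM in WT NT. The cytokine Il18 rose by 1.08 ± 0.18 and Ang4, a Paneth cell ribonuclease, by 0.55 ± 0.10. Under ES, Dmbt1 (-0.75 ± 0.06), Retnlb (-2.82 ± 0.33), Il18 (-1.07 ± 0.18) and the fucosyltransferase Fut2 (-1.36 ± 0.29) were lower in KO than in WT, as Reg1 and Reg3a were. The nitric oxide synthase Nos2 was the 1 gene of the list that was higher there (0.71 ± 0.18), and it also was in KO under NT (1.09 ± 0.20). Nos2 under ES falls outside the naming rule and was added after its value was seen. With ES in KO, Itln1, a Paneth and goblet cell lectin, rose by 0.52 ± 0.09, and Dmbt1 was the 1 gene of the list with a call for the difference of the ES effects (-0.56 ± 0.08, adjusted p = 0.0475). In old 2 rose, Il18 by 0.76 ± 0.12 and the kinase Pim1 by 0.49 ± 0.09, and 5 fell, among them Ang4 (-1.78 ± 0.09) and Retnlb (-3.73 ± 0.43). Retnlb was thus higher with ES in WT and lower in old, where Reg3b and Reg3a were higher both times. The calls of these 3 lists stand beside the shares of all genes, which were 2.1% higher with ES in WT, 3.09% higher and 4.47% lower in KO under ES, 2.36% higher in KO under NT, and 4.42% higher and 3.42% lower in old. In these comparisons, 1 call among 18, 20 or 21 genes is near the background and no result about a list.

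Markers of other cells moved with some of these results, and their part in them was not tested. Enterocyte markers summed to 1594 to 1824 CPM in KO ES, 1716 to 2542 in KO NT, 2553 to 2977 in WT ES and 1897 to 1923 in WT NT, so WT ES had the highest sums of these groups, as for Reg1, and the 2 KO ES libraries lay below WT NT with KO NT replicate 1 between them. KO NT replicate 2, with the higher Reg1 level of its pair, had 2542 CPM, and replicate 1 had 1716 CPM. Of 16 enterocyte markers, 3 fell and 13 had no call with ES in KO (median log2 fold change -0.95), and 3 rose and 13 had no call with ES in WT (median 0.56). For KO minus WT in the ES effect the median was -1.44, with 3 lower by adjusted p and all 16 at an unadjusted p under 0.05, and in KO under ES 14 were lower (median -1.11). The sign of the enterocyte median thus turned with genotype as that of Reg1 did. In KO the median includes KO NT replicate 2, the library that stood apart, and the sum of replicate 1 showed no fall with ES beyond the KO ES libraries. Goblet cell markers summed to 4636 to 4670 CPM in KO ES, 2741 to 2781 in KO NT, 10585 to 10817 in WT ES and 5263 to 5388 in WT NT. Of 14, 11 rose with ES in KO, 12 rose with ES in WT, 13 were lower in KO under ES and 14 under NT. Paneth cell markers, of which 7 of 15 rose with ES in KO and 5 with ES in WT, summed to 12141 to 12644 CPM in KO ES, 7643 to 9702 in KO NT, 11475 to 12152 in WT ES and 9622 to 9710 in WT NT. Enteroendocrine markers summed to 174 to 184 CPM in KO ES, 137 to 155 in KO NT, 293 to 313 in WT ES and 184 to 197 in WT NT. Of 17 tested, 4 rose with ES in WT, 12 were lower in KO under ES and 2 under NT. Of 14 tuft cell markers, 8 were lower in KO under ES and 9 under NT. Of 19 stem cell markers, 15 fell with ES in WT, 7 were higher in KO under ES and 3 were lower in KO under NT. Among all genes, 0.415% were higher and 0.0979% lower with ES in KO, and 2.1% and 1.39% with ES in WT. In KO against WT the shares were 3.09% and 4.47% under ES and 2.36% and 2.11% under NT. For the difference of the ES effects they were 0.0115% and 0.0979%. A count of 2 or 3 markers is a weak description of a list.

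Markers of pancreatic acinar cells, another known source of Reg1, were mostly at or near 0. The acinar genes Pnlip, Prss2, Cpb1, Try4, Amy2a5, Cela3b and Ptf1a had 0 counts in all 14 libraries, and Cpa1, Cel and Cela2a had at most 3 in any. Of 13 acinar markers, Clps was the 1 gene that could be tested, and it was higher with ES in KO (0.53 ± 0.09) and lower in old (-0.63 ± 0.08). The colonic genes Hoxa13, Hoxb13 and Hoxd13 were also at 0 in every library. Other colon markers were present. Of 8 in the count tables, 4 could be tested in the first experiment and 3 in the second. The 8 summed to 58.2 to 94.4 CPM over the 14 libraries. In KO under ES, 1 of the 4 tested was lower, against 4.47% of all genes.

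In the ageing experiment, lymphocyte markers summed to 163 to 198 CPM in old and 31.5 to 49.3 CPM in young, and 10 of 12 tested rose. They moved with the higher Reg3b and Reg3a of old. Of 8 myeloid markers 3 rose in old. Beside the fall of Reg4, enteroendocrine markers were higher in old, with 384 to 551 CPM against 267 to 299 CPM in young and 9 of 18 risen. Tuft cell markers were lower, with 541 to 579 CPM in old against 676 to 787 CPM in young and 9 of 14 fallen. Goblet cell markers summed to 9100 to 9579 CPM in old and 6966 to 8273 CPM in young, with 3 of 14 higher and 2 lower. Paneth cell markers summed to 9025 to 11487 CPM in old and 11117 to 11773 CPM in young, with 7 of 15 fallen, and enterocyte markers to 2261 to 2675 CPM in old and 2351 to 2839 CPM in young, with 2 of 16 higher and 2 lower. Among all genes, 4.42% were higher and 3.42% lower in old, so a count of 2 or 3 markers is a weak description of a list. The part of these cells in the ageing results was not tested.

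**Figure D4:**
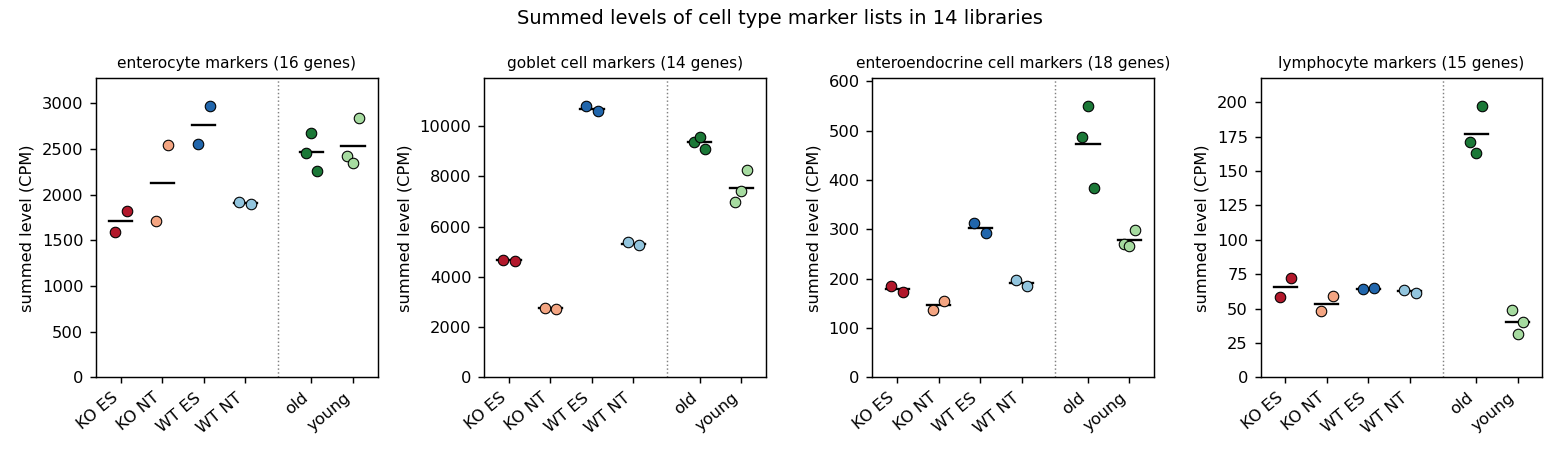
Summed level of 4 marker lists (vertical axes, CPM) in each library by group (horizontal axes), with 1 point per library and a line at the group mean. Enterocyte and goblet cell sums are highest in WT ES among the 4 groups of its experiment, and lymphocyte and enteroendocrine sums are higher in old than in young.

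The genes whose log2 levels were most like each Reg gene over the 8 libraries of the first experiment were taken from 11927 candidates with a mean of at least 1 CPM, as a description of libraries that share 4 groups. They were Ogdh, Kcnk5 and Gpt for Reg1 (Pearson's r 0.96 for each), Grk2, Lgmn and Tmed3 for Reg3b (0.97 to 0.98), Fbxo6, Grk2 and Tmsb10 for Reg3g (0.97 to 0.98), and Acad11, Pigl and Ahnak for Reg3a (0.98 to 0.99). For Reg4 they were Gltp, Ebag9 and Abcc3 (0.95 for each). Grk2, a kinase of G protein-coupled receptors, was on the lists of both Reg3b and Reg3g. Over the 6 ageing libraries the same pairs had r from -0.56 (Reg3a and Ahnak) to 0.88 (Reg4 and Abcc3), and 3 of the 15 were over 0.7, namely Reg1 with Gpt (0.73), Reg3a with Acad11 (0.74) and Reg4 with Abcc3. No gene of the list for Reg3b or Reg3g reached 0.3 there.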

How the data were processed

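Polyadenylated RNA of sorted cells was sequenced in strand-specific TruSeq libraries, per the labels' protocols. The authors deposited raw counts per Ensembl gene, with no normalization. The genome build mm10 and FastQC 0.11.2 are named per the submitters' processing notes. Aligner and counting tool were not given in the sources used here. Columns named Ctrl in the count table were read as NT. Gene positions and transcripts came from GENCODE release M21, in which 55154 of the 55335 gene identifiers were found, and promoter windows from RefSeq (GRCm38.p6), where all 5 genes matched by symbol. Sequences were aligned with Biopython 1.88.

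Each table was fitted separately with edgeR 4.0.16 in R 4.3.3: filterByExpr defaults, TMM scaling, 1 mean per group, a quasi-likelihood test for each comparison, and Benjamini-Hochberg adjustment over all tested genes. A gene passed at an adjusted p under 0.05. The 8 libraries of the Chrm3 table shared 1 estimate of the spread. Standard errors were derived from each log2 fold change and its F statistic and are approximate. The fit was also run on simulated counts, drawn independently for each library. Its outcome there is not given, and no simulated library was made to stand apart. All 5 Reg genes passed the filter on low counts in both tables.

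The Reg genes, the 18 gene lists and the tests were chosen with earlier results of these data known. The rule for naming genes took the Reg genes, Reg2, Reg3d, Extl3, Il22ra1, Stat3, Socs3, Lgr5 and Chrm3, up to 4 passing members by p from each pathway list in each comparison, and the 3 genes most alike in pattern to each Reg gene. Alternatives were RLE size factors, a 1 CPM filter or no filter on counts, the older quasi-likelihood form, DESeq2 1.42.0, limma-voom (limma 3.58.1), a replicate block, only the 2 groups compared, other thresholds, and leaving out each library. Depth limits Reg3a most, with 89 counts in its lowest library.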

Additional observations from a re-analysis of the deposited data

Results flagged for a closer look

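The ES effect on Reg1 differed between the genotypes by a test of the difference itself, at -2.77 (KO minus WT, log2 scale, adjusted p = 0.00197 in edgeR). Reg1 was lower with ES in 2 of 2 KO libraries and higher in 2 of 2 WT libraries, each set against both NT libraries of its genotype. Dixon's test for single outlying values was not run on these groups of 2 or 3 libraries.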

How the results depend on the processing

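Of 230 values recomputed under other settings, 208 kept their direction and side of the threshold, as did 189 of 230 with 1 library left out. The cause of the changes below was not tested, except that leaving out libraries leaves fewer of them. No scaling moved the median of all genes by over 0.05 (log2). Where an arm keeps 1 library, it is assumed to vary like the other groups.

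Without a count filter, ES in WT gave 1.67 for Reg3b (adjusted p = 0.118), 1.57 for Reg3g (0.0501) and 0.99 for Reg3a (0.0891), and 1 Reg gene passed. ES in KO then gave -1.01 for Reg1 (0.195) and 1.31 for Reg3g (0.217), with 0 passing, and the ES effect in KO minus that in WT gave -2.78 for Reg1 (0.111), with 0 passing. Old against young gave 0.85 for Reg3b (0.116) and 1.26 for Reg3a (0.104), with 1 passing. Among all genes, calls without the filter went from 605 to 114 with ES in WT and from 89 to 8 with ES in KO. They went from 19 to 0 for the difference of the ES effects and from 1318 to 666 in old. With only the 2 groups compared, ES in KO gave -1.02 for Reg1 (0.111) and 1.31 for Reg3g (0.113), with 0 passing. KO under ES gave -1.07 for Reg3b (0.00103) and -0.64 for Reg3g (0.00706), with 4 passing. Among all genes, calls went from 89 to 24 and from 1312 to 1448 in these 2 comparisons. For Reg1 in KO under NT, RLE size factors gave 0.62 (0.0479), the 1 CPM filter 0.63 (0.0394) and DESeq2 0.62 (0.000723), each with 1 passing. Calls among all genes there were 780, 828 and 936 under these settings, against 776 before. DESeq2 also gave -1.28 for the difference of the ES effects in Reg3a (0.0317, 2 passing) and 0.30 for Reg3g in old (0.0457), and limma-voom gave -1.08 for Reg3b in KO under ES (0.0488). For that difference, DESeq2 called 211 of all genes where edgeR called 19. At an adjusted p under 0.01, 2 Reg genes passed with ES in WT, 0 with ES in KO and 1 in old. At one under 0.1, 1 passed in KO under NT and 4 in KO under ES. The share of all genes at these 2 thresholds was not computed, so these counts have no background beside them.

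With the replicate number as a block, Reg1 in KO under NT was 0.60 (0.0239, 1 passing), KO under ES gave -1.11 for Reg3b (0.0247) and -0.66 for Reg3g (0.0262, 4 passing), and Reg3g in old was 0.31 (0.0428). Whether the numbers pair the libraries is not in the labels and could not be decided here. Deviations of same-numbered libraries from their group means correlated by -0.00832 to 0.103 in the Chrm3 table. With 2 libraries in a group these deviations mirror each other, so r for different numbers is the same with its sign turned. In the ageing table r was 0.00454 to 0.0837 for the same number and -0.105 to 0.0269 for different numbers. With the block, calls among all genes rose in each comparison. They went from 605 to 970 with ES in WT and from 1318 to 2019 in old. In KO against WT they went from 776 to 998 under NT and from 1312 to 1758 under ES.

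Leaving out each library in turn gave these ranges of log2 fold change. Calls among all genes also changed with the library left out, so lost or gained calls were not particular to the Reg genes. ES in WT gave 1.51 to 1.80 for Reg3b, 1.51 to 1.61 for Reg3g and 0.76 to 1.20 for Reg3a, with 1 to 4 genes passing. ES in KO gave -1.28 to -0.70 for Reg1, 0.67 to 2.00 for Reg3b and 0.96 to 1.77 for Reg3g, with 0 to 3 passing. KO under NT gave 0.31 to 0.89 for Reg1, -1.40 to -0.0672 for Reg3b, -0.84 to -0.0242 for Reg3g and -0.11 to 0.27 for Reg4, with 0 to 3 passing. KO under ES gave -1.34 to -0.84 for Reg3b and -0.86 to -0.43 for Reg3g, with 2 to 4 passing. The difference of the ES effects gave -3.04 to -2.47 for Reg1, -1.01 to 0.34 for Reg3b, -0.62 to 0.21 for Reg3g and -0.16 to 0.21 for Reg4, with 0 to 1 passing. Old against young gave -0.00501 to 0.25 for Reg1, 0.66 to 1.15 for Reg3b, 0.19 to 0.44 for Reg3g and 0.97 to 1.51 for Reg3a, with 1 to 4 passing.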
